A study of Mus musculus with 6 samples.

Results

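Among 4476 cells profiled by single-cell ATAC-seq, 91 had many transposase cut sites in 6 genes of sustentacular cells, the supporting cells of the olfactory epithelium, and are called rule cells here. A cell was a barcode with 2000 or more fragments, and each fragment end counted as 1 cut site. A rule cell placed at least 4 times the mean share of its cut sites in the bodies and the 2000 bp upstream of Cyp2g1, Cyp2a5, Cyp1a2, Ermn, Sult1c1 and Sec14l3, and had cut sites in at least 3 of these 6 genes. The other 4385 cells served as the comparison.

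Sustentacular cells span the olfactory epithelium from its surface to its base, wrap the olfactory neurons, regulate the ions and mucus at the surface, and carry a large set of drug-metabolising enzymes. Cytochrome P450 and flavin monooxygenases oxidise inhaled chemicals, and glucuronosyl- and sulfotransferases then conjugate the products. Below them lie the horizontal basal cells, reserve stem cells marked by keratins 5 and 14, which can produce sustentacular cells and neurons after severe injury. Methimazole, an antithyroid drug, injures this epithelium.

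All 6 libraries came from dorsal olfactory epithelium of mice that carried a tamoxifen-inducible Cre recombinase under Krt5 control (Krt5-CreER) and Rosa26-LSL-YFP, so that YFP marked cells that had expressed Krt5 and their descendants. YFP-positive, propidium iodide-negative cells were sorted from 3 uninjured libraries and from 3 libraries made 24 h after intraperitoneal methimazole. Replicate 1 of each group came from mice of 8 weeks, replicate 2 from mice of 6 weeks and replicate 3 from mice of 6 to 7 weeks. The labels call every sample horizontal basal cells, and the time of Cre induction was not given in the sources used here.

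The libraries held 8100227 to 23937953 fragments, and the cells of a library held 14825320 to 44875242 cut sites. Uninjured 3 and injured 3 had 34 cell barcodes in common, against 0 to 4 for every other pair of libraries. Uninjured 3 also stood apart from the other uninjured libraries in its other cells: 19.5% of their cut sites in injury-responsive regions (defined below) lay in regions that open after injury, against 3.20% in uninjured 1 and 5.83% in uninjured 2. Each library was read in regions chosen without its own replicate number, so these percentages rest on different region sets. Barcodes found in more than 1 library included 3 rule cells, all in uninjured 2. A doublet caller based on stretches covered by 3 or more fragments of a cell marked 15 of the 91 rule cells (16.5%) and 12.5% of the other cells. These doublets were kept.

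Rule cells were mostly cells of 2 uninjured libraries. Uninjured 1 held 4 rule cells among 454 cells (0.881%, exact 95% binomial interval 0.241 to 2.24), uninjured 2 held 47 among 889 (5.29%, 3.91 to 6.97) and uninjured 3 held 31 among 629 (4.93%, 3.37 to 6.92). After injury the counts were 4 of 1338 in injured 1 (0.299%, 0.0815 to 0.764), 1 of 420 in injured 2 (0.238%, 0.00603 to 1.32) and 4 of 746 in injured 3 (0.536%, 0.146 to 1.37). Every injured library was below every uninjured one, although the interval of uninjured 1 overlapped those of all 3 injured libraries. Such intervals cover counting error only.

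The mean share was 3.70% ± 2.45 (SD, n = 3) before and 0.358% ± 0.158 (SD, n = 3) after injury. This difference of 3.34 percentage points gave p = 0.1 in an exact two-sided permutation test, the smallest p that 3 libraries against 3 allow. Depth differed between the cells compared: rule cells had a median of 21024 fragments and other cells 13283, although in uninjured 3 the order was the reverse, with 19242 and 22076. When each cell was thinned to 2000 fragments, 0, 3 and 1 cells of the uninjured libraries and no injured cell passed the rule (difference 0.166 points, exact permutation p = 0.4). The share also depends on which cells the sort admitted, whose part in the difference was not tested.

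**Figure D1:**
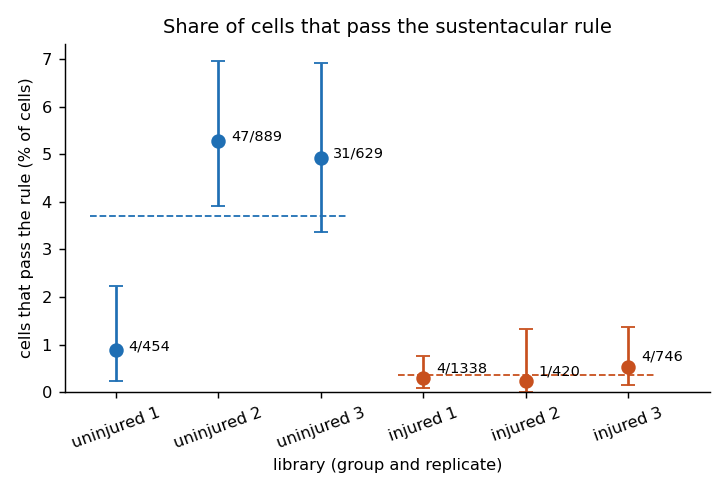
Percentage of cells that passed the rule in each library, with exact 95% binomial intervals as bars and the number of rule cells and of all cells beside each point; dashed lines mark the group means. The 3 injured libraries lie between 0.238% and 0.536%, and the uninjured ones between 0.881% and 5.29%.

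The rule cells were chosen by their cut sites in the 6 rule genes, so these values are described without a test. Rates are given as CPM, cut sites per 1000000 of all cut sites of the cells in question. The mean over all cells was 49.9 CPM in the 6 genes together, and the rule cells reached 4.04 to 44.1 times this rate, with a median of 7.50. The highest cell outside with 3 genes open reached 3.93 times the mean. Near the threshold, 5 rule cells lay within 10% above it and 7 cells with 3 genes within 10% below it, while 163 cells had the rate but fewer than 3 genes. Of the rule cells, 38 had cut sites in 3 of the genes, 27 in 4, 20 in 5 and 6 in all 6, and the 9 injured rule cells all had 3 or 4.

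Cyp2g1 and Cyp2a5, cytochrome P450 enzymes of the olfactory mucosa, lie side by side on chromosome 7 (GRCm38 chr7:26808892-26821205 and chr7:26835305-26843548, both on the plus strand). In uninjured 2 the rule cells had 93.3 CPM in Cyp2g1 and the other cells 3.54, and in uninjured 3 the values were 155 and 1.89. A cut site in Cyp2g1 was found in 71.4% of the rule cells and 3.79% of other cells. Cyp2a5 had 54.9 against 7.41 in uninjured 2 and 65.4 against 6.95 in uninjured 3, values that are uncertain because Cyp2a4 is a near-identical copy. Cyp1a2, a P450 enzyme of aromatic amines (chr9:57676937-57683703, minus strand), had 21.5 against 2.88 and 16.0 against 1.95. Of the 91 rule cells 30 had a cut site there, the fewest of the 6 genes, a count that is not corrected for gene length.

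Sult1c1, a sulfotransferase (chr17:53961615-53990674, minus strand), had 42.6 CPM in rule cells and 3.14 in other cells of uninjured 2, and 36.3 and 4.67 in uninjured 3. Ermn encodes an actin-binding protein (chr2:58045113-58052864, minus strand) and had 86.1 against 21.5 in uninjured 2 and 110 against 12.1 in uninjured 3. For Sec14l3, a lipid-binding protein gene (chr11:4064841-4077736, plus strand), the values were 124 against 13.4 and 165 against 12.2. Ermn and Sec14l3 had cut sites in 75 and 79 rule cells, the most of the 6, and also in 17.1% and 16.6% of other cells. Outside uninjured 2 and uninjured 3 the rule cells were few and their order differed by gene. In Cyp2g1 they had 19.3 CPM in uninjured 1 and 30.2, 0 and 48.3 in the injured libraries, all below uninjured 2 and uninjured 3. In Sult1c1 they had 9.66 in uninjured 1 but 121, 47.5 and 66.3 in the injured libraries, above uninjured 2 and uninjured 3.

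Whether rule cells shared a wider profile was read from regions far from the rule genes. In uninjured 2 and in uninjured 3 separately, the 1000 open regions most enriched and the 1000 most depleted in rule cells were picked, all more than 500 kb from a rule gene. Each cell of a library was then scored with regions picked in another library, by how many of its cut sites over both sets fell in the enriched set, in percent. Cells of uninjured 2 were scored with the regions of uninjured 3 and the reverse. Cells of the other 4 libraries were scored with regions picked from both by another criterion. These were the 1000 regions in each direction with the smallest p in the edgeR comparison described below, not those with the largest ratio. The picks of the 2 libraries had 346 enriched regions in common.

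In uninjured 2 the rule cells scored from 24.6 to 93.9 with a median of 87.6, and 46 of 47 lay above the 95th percentile of other cells (49.0). Uninjured 3 gave a median of 89.1, from 7.13 to 96.8, and 25 of 31 above the 95th percentile of other cells (28.3). The medians of other cells in these libraries were 17.6 and 8.98, so nearly all rule cells of uninjured 2 and most of uninjured 3 stood apart at regions that the rule did not read. The 4 rule cells of uninjured 1 were split, at 15.3, 16.8, 66.0 and 77.9, with 2 above that library's 95th percentile (21.9).

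By this score the injured rule cells mostly did not stand apart from other cells. Those of injured 1 scored 9.31, 11.4, 14.4 and 17.1, none above the 95th percentile of other cells (19.2). The single cell of injured 2 scored 14.3, below 23.6. In injured 3 the scores were 11.8, 22.4, 23.1 and 27.1, of which 1 exceeded 25.6. The medians of other cells in the injured libraries were 12.4, 13.2 and 13.5. Counting scores of 50 or more with at least 20 cut sites in the sets, 71 of the 91 rule cells passed, and all 71 were uninjured. The 71 were 46 of 47 rule cells of uninjured 2, 23 of 31 of uninjured 3 and 2 of 4 of uninjured 1. These are called sustentacular-like here, and the 9 injured ones, none of which reached 50, are called rule cells only. The score reads a profile that rule cells share between uninjured libraries and holds no sustentacular reference, so it cannot decide the cell type. Its regions were picked in uninjured libraries, by 1 criterion for uninjured 2 and uninjured 3 and another for the other 4 libraries. The parts of this difference and of injury-changed chromatin in the injured scores were not tested. The score threshold of 50 was set after the scores were seen, and 36 cells of all 4443 scored lay between 40 and 60.

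**Figure D2:**
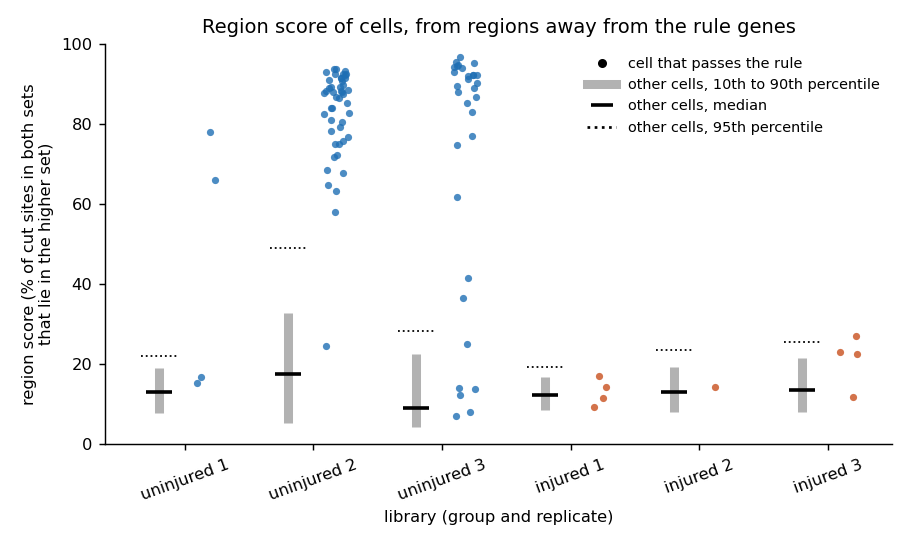
Score of every rule cell (points) by library, as the percentage of cut sites in rule-enriched plus rule-depleted regions that lay in the enriched ones; grey bars span the 10th to 90th percentile of other cells, dashes their median and dotted lines their 95th percentile. Rule cells of uninjured 2 and 3 centre on 87.6 and 89.1, and those of the injured libraries stay at 27.1 or less.

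The score also showed cells of this profile that the rule missed. Outside the rule cells, 2 of 448 cells in uninjured 1, 40 of 822 in uninjured 2 and 12 of 598 in uninjured 3 scored 50 or more. Their median rule-gene rates were 5.05, 3.19 and 3.45 times the mean, against the threshold of 4, and 1, 13 and 5 of them reached the rate but had cut sites in fewer than 3 of the genes. In the injured libraries 0 of 1333, 2 of 415 and 4 of 736 did so. The 0 in injured 1 allows a share of up to 0.225%. The injured ones were shallow, with median fragments of 3154 in injured 2 and 5901 in injured 3, and their median rule-gene rate was 0.

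Promoter accessibility was compared between rule cells and other cells of the same library, by summing cut sites within 1000 bp of each gene's start. Only uninjured 2 and uninjured 3 held the 10 rule cells that the comparison required, so it rests on 2 libraries. Of 15430 promoters more than 500 kb from a rule gene, 716 were more accessible in rule cells (4.64%) and 710 less (4.6%) by edgeR with library as a block and a Benjamini-Hochberg adjusted p below 0.05. The 2 libraries' rule-cell and other-cell values did not overlap at 57.5% of promoters, so that alone marks little. Adding uninjured 1 gave 175 and 290 calls, and all 6 libraries gave 10 and 141.

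The 10 promoters with the largest gain, under the naming rule of no overlap and a mean of 5 CPM or more, were AU021092, Vmn1r218, Acnat1, Muc2, Apom, Cyp4f15, Nin, Atp6v1c2, Eml1 and Igsf5. AU021092, a gene without an assigned role, led (window chr16:5221299-5223299), with 44.9 CPM in rule cells and 2.71 in other cells of uninjured 2, and 43.6 and 1.03 in uninjured 3. Its log2 change was 4.60 ± 0.384 (SE, adjusted p = 2.66e-17). Muc2, a gel-forming mucin (chr7:141689340-141691340), had 25.0 against 2.09 and 40.7 against 2.02, a log2 change of 3.90 ± 0.469 (SE, adjusted p = 7.03e-10). Acnat1, an acyl transferase that conjugates fatty acids to amino acids, had 30.0 against 2.75 and 33.4 against 1.19 (log2 change 4.03). The naming rule required no overlap, so the separation of rule cells from other cells in all 3 was fixed by the choice.

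Atp6v1c2, a subunit of the proton-pumping vacuolar ATPase (chr12:17328359-17330359), had 25.4 in rule cells of both libraries, against 2.68 and 1.85 in other cells (log2 change 3.45 ± 0.529 SE, adjusted p = 1.06e-06). Cyp4f15, a fatty-acid hydroxylase of the P450 family, changed by 3.58 on the log2 scale (adjusted p = 0.00356), and Apom, which binds lipids in lipoproteins, by 3.69 (adjusted p = 0.0102). Igsf5 encodes a junctional adhesion protein and had 22.3 against 2.91 and 27.6 against 1.79. Nin, a centrosomal protein gene, changed by 3.48, and Eml1, a microtubule-binding protein gene, by 3.43. Vmn1r218 belongs to a vomeronasal receptor family with similar copies, so its value of 4.19 (adjusted p = 0.00741) is uncertain, and its call was lost with windows of 500 bp either side.

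Summed over these 10 promoters, the libraries outside the comparison can be set beside it. The rule cells had 226 CPM in uninjured 2 and 253 in uninjured 3, which chose the promoters, and the 4 of uninjured 1 had 150 (exact Poisson 95% interval 102 to 213) against 16.5 in its other cells. In injured 1 the 4 rule cells had 2 cut sites, or 10.1 CPM (1.22 to 36.3), against 11.4 in other cells. The 1 rule cell of injured 2 had 0 cut sites, an interval that reaches 87.5 CPM, against 12.7. Those of injured 3 had 36.2 (13.3 to 78.8) against 15.8. The rate in uninjured 1 was thus nearer to those of uninjured 2 and 3 than were the rates of the injured libraries. These intervals cover counting error only, both ends of a fragment count separately in them, and each value comes from 4 cells or 1, of which 2 in uninjured 1 had the wider profile.

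Among the largest losses were Psapl1, Tmem45a, Fam92b, Phf11d, Gna15, Dmrt2, Col4a1, Col4a2 and Ces1b. Each had 0 cut sites in the rule cells of 1 of the libraries and 2 to 4 in the other, so the fitted changes of -5.12 to -4.24 on the log2 scale depend on the prior count. Psapl1, a prosaposin-like gene, had 0 and 1.45 CPM in rule cells against 18.1 and 17.6 in other cells. Col4a1 and Col4a2, the basement membrane collagen IV chains, share a promoter window and had 1.54 and 0 against 19.1 and 15.9. Gna15, a G protein subunit gene, lost its call when gene bodies replaced promoters (log2 change -0.79). The libraries outside the comparison were read by sums over the 9 separate windows of the 10 largest losses. Rule cells had 19.3 CPM (exact Poisson 95% interval 5.27 to 49.5) against 119 in uninjured 1 and 85.5 (49.8 to 137) against 105 in injured 1. They had 142 (52.2 to 310) against 91.5 in injured 2 and 12.1 (1.46 to 43.6) against 104 in injured 3. The rule cells of injured 3, with 2 cut sites, were thus low there like those of the uninjured libraries. The higher rates of injured 1 and injured 2 rest on few cut sites. In injured 1, 9 of the 17 lay at Gna15, and injured 2 had 6 from 1 cell.

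**Figure D3:**
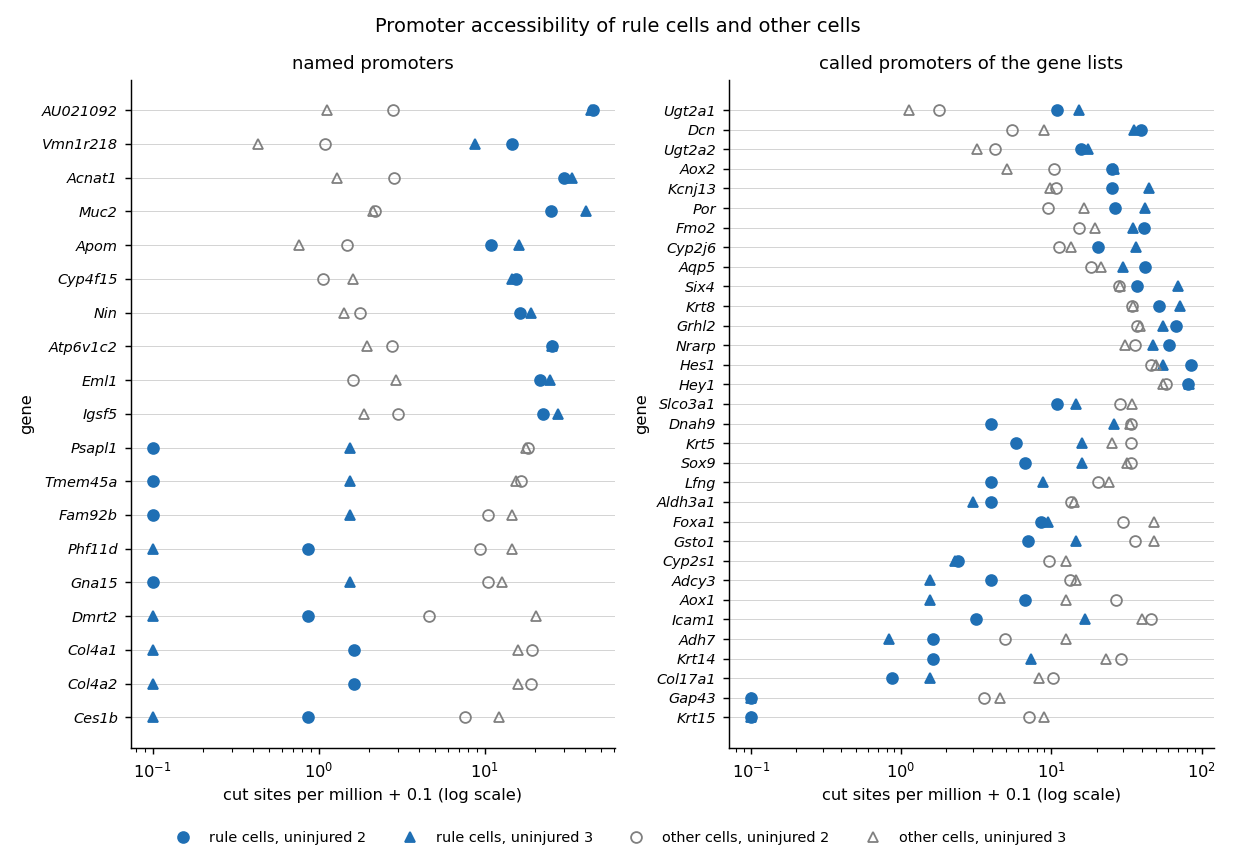
CPM plus 0.1 (log axis) at the named promoters (left) and at the called promoters of the gene lists (right); filled symbols are rule cells and open symbols other cells, circles uninjured 2 and triangles uninjured 3. Rule cells lie right of other cells from AU021092 to Igsf5 and from Ugt2a1 to Hey1, and left of them below.

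Lists of genes, chosen with earlier results of these data known, were then read by role. They stand beside a median log2 change of -0.08 over all 15430 promoters. Sustentacular genes outside the rule were the first: 5 of 12 promoters tested were higher and 0 lower (background 4.64% higher and 4.6% lower), with a list median of 0.39. Ugt2a1, the glucuronosyltransferase of olfactory epithelium, had 10.8 CPM against 1.69 in uninjured 2 and 15.3 against 1.03 in uninjured 3, a log2 change of 3.21 ± 0.957 (SE, adjusted p = 0.0183). Its neighbour Ugt2a2, an enzyme of the same family, had 15.8 against 4.14 and 17.4 against 3.11 (2.15 ± 0.594, adjusted p = 0.0101). Both had rule-cell values above all other-cell values. With doublets left out, and with windows of 500 bp either side, Ugt2a1 lost its call and Ugt2a2 kept it.

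Fmo2, a flavin monooxygenase that oxidises nitrogen- and sulfur-containing chemicals, had 41.5 against 15.3 and 34.9 against 19.5 (1.12 ± 0.256, adjusted p = 0.0014). Krt8, the simple-epithelial keratin that marks sustentacular cells, had 51.9 against 34.4 and 71.9 against 35.0 (0.76 ± 0.179, adjusted p = 0.00207). Hes1, a Notch target and transcriptional repressor, had 85.7 against 46.0 and 55.2 against 49.8 (0.53 ± 0.169, adjusted p = 0.0304). Other cells were also accessible at Krt8 and Hes1, and both differences were smaller than those of the Ugt2a genes. Hes1 lost its call under DESeq2, without the filter on low counts, without the library block and with uninjured 1 added, and Krt8 lost it with uninjured 1 added.

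Of the rest of this list, Krt18 (0.57, adjusted p = 0.0839), Cbr2 (0.21, adjusted p = 0.515) and Notch2 (0.14, adjusted p = 0.783) did not pass. Cyp2f2, another P450 of olfactory and airway epithelium, lies within 500 kb of rule genes and was counted apart (1.79, adjusted p = 0.0177), a call lost without the library block and with doublets left out.

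Oxidation enzymes gave calls in both directions, 4 higher and 4 lower of 32, with a list median of 0.10. Aox2, an aldehyde oxidase, had 25.4 against 10.3 in uninjured 2 and 26.2 against 4.97 in uninjured 3 (1.77 ± 0.383, adjusted p = 0.000694). Por, the reductase that passes electrons to every microsomal P450, had 26.5 against 9.43 and 42.1 against 16.4 (1.38 ± 0.297, adjusted p = 0.00064). Cyp2j6, a P450 of fatty acids, had 20.4 against 11.1 and 36.3 against 13.4 (1.11, adjusted p = 0.0177), and Fmo2 was the fourth. Cyp2j6 lost its call with uninjured 1 added, whose rule cells had 0 against 13.7, and turned to -0.63 with all libraries but uninjured 2 and to -0.83 with all but uninjured 3. On the lower side stood a second aldehyde oxidase: Aox1 had 6.53 against 26.8 and 1.45 against 12.4 (log2 change -2.31, adjusted p = 0.000213). The others lower were Adh7 (-2.60), Cyp2s1 (-2.28) and the aldehyde dehydrogenase Aldh3a1 (-2.02), none of which stayed called with doublets left out. Both aldehyde oxidase genes lie on chromosome 1, with windows at chr1:58028931-58030931 for Aox1 and chr1:58277326-58279326 for Aox2, and were called in opposite directions.

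Among conjugation enzymes 2 of 19 were higher, the same Ugt2a1 and Ugt2a2, and 1 was lower, with a list median of 0.31. Gsto1, a glutathione transferase, had 6.91 against 35.9 and 14.5 against 48.3 (-2.10 ± 0.282, adjusted p = 3.95e-08). Transporters gave 2 higher and 1 lower of 15 (median 0.03). Both lists are small, and the background was 4.64% higher and 4.6% lower. Kcnj13, an inwardly rectifying potassium channel of ion-transporting epithelia, had 25.4 against 10.6 and 44.3 against 9.67 (1.67 ± 0.322, adjusted p = 0.000128). The water channel gene Aqp5 had 42.3 against 18.3 and 29.8 against 21.4 (0.84 ± 0.253, adjusted p = 0.0200), a call lost under DESeq2 and with uninjured 1 added. Slco3a1, an organic anion transporter, was lower (-1.38, adjusted p = 0.000579).

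Of 25 transcription and nuclear receptor genes of the epithelium, 2 were higher and 1 lower (median 0.19). These counts are near the background of 4.64% higher and 4.6% lower. Six4, a homeobox factor of the olfactory placode, had 36.9 against 28.3 in uninjured 2 and 69.7 against 28.6 in uninjured 3 (0.78 ± 0.202, adjusted p = 0.0052). Grhl2, a regulator of epithelial junction genes, had 67.2 against 36.9 and 55.2 against 38.8 (0.66 ± 0.177, adjusted p = 0.00735). Foxa1, a forkhead factor of gland and airway epithelia, had 8.45 against 29.8 and 9.44 against 48.0 (-2.09 ± 0.297, adjusted p = 1.7e-07). Six4 lost its call with uninjured 1 added and Grhl2 with doublets left out and at 6 times the mean rate, while Foxa1 kept it under all 3.

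Notch signalling, in which ligands on 1 cell activate receptors and Hes and Hey repressors in the next, gave 3 higher and 1 lower of 14 (median 0.14). Besides Hes1, the targets Hey1 and Nrarp were higher: Hey1 had 81.1 against 58.0 and 82.8 against 55.7 (0.48 ± 0.151, adjusted p = 0.0280), and Nrarp 61.1 against 35.8 and 47.2 against 30.8 (0.66 ± 0.187, adjusted p = 0.0121). The lower one was Lfng, a glycosyltransferase that modifies Notch receptors, with 3.84 against 20.3 and 8.72 against 24.2 (-1.98 ± 0.406, adjusted p = 0.000338). Receptor and ligand genes did not pass, among them Notch3 (1.45, adjusted p = 0.0598), Jag1 (0.43, adjusted p = 0.0591), Jag2 (-0.83, adjusted p = 0.0532) and Dll1 (-0.98, adjusted p = 0.0718). All 3 higher calls were lost with uninjured 1 added, Hey1 also under DESeq2 and without the filter on low counts, while Lfng stayed. With all 6 libraries Hey1 turned to -0.011, and Nrarp turned to -0.19 when uninjured 2 was left out of them.

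Horizontal basal cell markers went the other way, 0 higher and 5 lower of 11, with a list median of -1.64. Krt14 had 1.54 CPM in rule cells and 29.2 in other cells of uninjured 2, and 7.26 against 22.9 in uninjured 3 (-2.86 ± 0.440, adjusted p = 1.57e-06). Krt5, whose promoter drives the Cre, had 5.76 against 33.9 and 16.0 against 25.2 (-1.64 ± 0.336, adjusted p = 0.000385). Krt15, a keratin of basal stem cells, had no cut site in rule cells of these 2 libraries and was at least 10.5-fold lower, taking 3 cut sites over both libraries as the floor. In uninjured 1, outside the comparison, the 4 rule cells had 9.66 (2 cut sites) against 9.71. Icam1, an adhesion molecule on horizontal basal cells, had 3.07 against 46.3 and 16.7 against 40.4 (-2.45 ± 0.343, adjusted p = 5.08e-06). Col17a1, the hemidesmosome collagen, had 0.768 against 10.2 and 1.45 against 8.15 (-3.20 ± 0.821, adjusted p = 0.00494). Rule cells of uninjured 3 had higher rates than those of uninjured 2 at Krt14, Krt5 and Icam1, and Col17a1 rested on 4 cut sites in all. Krt15 and Icam1 lost their calls under DESeq2.

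Summed over the list, the rule cells had 69.5 against 207 in uninjured 2 and 114 against 186 in uninjured 3. In uninjured 1 the sums were 169 and 241, and in the injured libraries 181 against 174, 142 against 165 and 109 against 137. In no injured library was the gap between rule cells and other cells as wide as in uninjured 2 or uninjured 3.

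Markers of other cell types gave few promoter calls, with shares near the background of 4.6% lower or based on few genes. List medians were -1.67 for olfactory sensory neurons, -1.37 for neuronal precursors, -1.12 for respiratory cells, -0.88 for microvillar cells and ionocytes and -1.41 for immune cells, but 0.97 for Bowman glands and 0.74 for the stromal list. Olfactory sensory neuron markers gave 0 higher and 1 lower of 11 (Adcy3, -2.30, adjusted p = 0.00261), and neuronal precursor markers 0 higher and 1 lower of 9 (Gap43, no cut site in rule cells of either library, at least 5.25-fold lower). Gap43 lost its call under DESeq2, with windows of 500 bp either side, at 6 times the mean rate and with doublets left out. Respiratory markers gave 1 lower of 8, the ciliary dynein Dnah9 (-1.53, adjusted p = 0.00517; call lost under DESeq2 and without the library block), and microvillar and ionocyte markers none of 8. Immune markers had no call among the 3 tested, and 6 of 8 had no cut site in the rule cells of either library. Bowman gland markers gave Aqp5 higher and Sox9 lower of 7: Sox9, a gland transcription factor, had 6.53 against 33.7 and 16.0 against 31.7 (-1.72 ± 0.311, adjusted p = 4.73e-05).

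Dcn was also called higher. This gene of the matrix proteoglycan decorin had 39.6 against 5.36 in uninjured 2 and 35.6 against 8.81 in uninjured 3 (2.42 ± 0.334, adjusted p = 8.22e-08), but the 4 rule cells of uninjured 1 had 0 against 4.17. It was the only call among the 3 stromal, endothelial and glial markers tested, and it carried the list's summed rate of 45.3 against 13.2 and 49.4 against 19.4, while the endothelial marker Cdh5 had no cut site in the rule cells of either library. Over gene bodies in place of promoters the list's summed log2 ratio was -0.22, so its direction depends on the window. Dcn itself stayed higher there (1.90, adjusted p = 6.44e-09), and the endothelial marker Pecam1 was lower (-1.06, adjusted p = 3.31e-05). The part of stromal cells in the result was not tested.

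**Figure D4:**
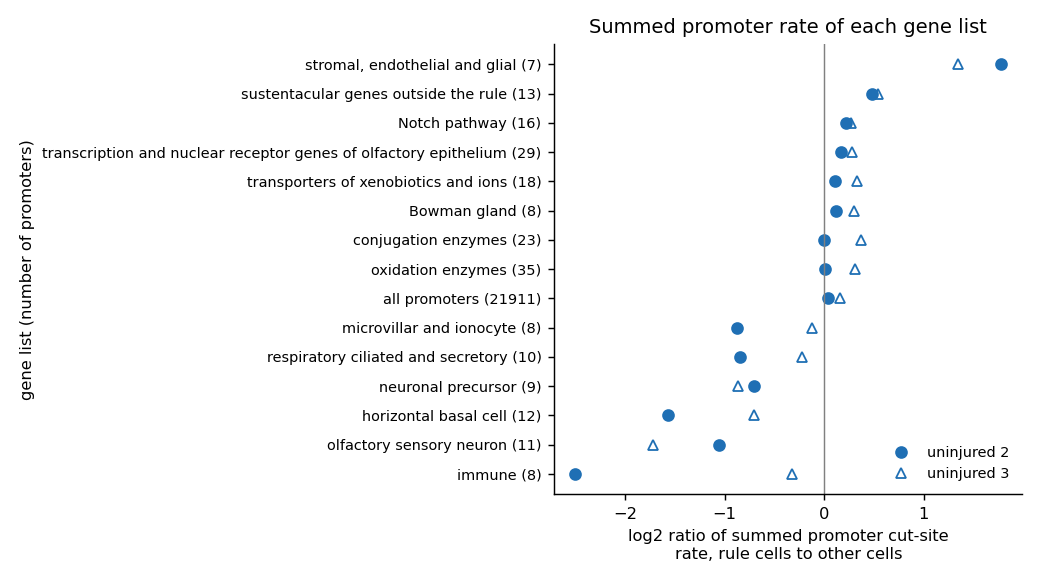
The log2 ratio of the summed promoter cut-site rate in rule cells to that in other cells for each gene list (number of promoters in parentheses), with circles for uninjured 2 and triangles for uninjured 3. Horizontal basal cell promoters lie left of 0 in both libraries (69.5 against 207 and 114 against 186 CPM), and the stromal list, carried by Dcn, lies farthest right, although over gene bodies it was at -0.22.

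Whole genes hold more cut sites than promoters, and the same test over gene bodies plus 2000 bp upstream called more members of several lists. Of 18851 genes tested more than 500 kb from a rule gene, 1234 were higher in rule cells (6.55%) and 1655 lower (8.78%). Among sustentacular genes outside the rule 8 of 13 were higher and 0 lower, with a list median of 0.63 beside -0.08 over all genes. Notch2, the Notch receptor found in sustentacular cells, had 280 against 167 CPM in uninjured 2 and 299 against 196 in uninjured 3 (log2 change 0.67 ± 0.167 SE, adjusted p = 0.00116), and Krt18, the partner keratin of Krt8, had 60.3 against 37.6 and 55.9 against 35.1 (0.67 ± 0.230, adjusted p = 0.0290). Both had missed the threshold at their promoters.

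Of oxidation enzymes 11 of 35 were higher and 6 lower over gene bodies. Aox2 had 340 against 132 and 478 against 100 (1.79 ± 0.170, adjusted p = 9.35e-23), while Aox1 stayed lower (-1.30 ± 0.300, adjusted p = 0.000317). Cyb5a, the cytochrome b5 that donates electrons to P450 enzymes, had 208 against 104 and 186 against 120 (0.81 ± 0.178, adjusted p = 0.000138). Aldh2, which clears acetaldehyde in mitochondria, had 100.7 against 58.1 and 147 against 57.6 (1.06 ± 0.189, adjusted p = 1.34e-06). Ephx1, the microsomal epoxide hydrolase, had 137 against 85.2 and 150 against 68.8 (0.89 ± 0.184, adjusted p = 4.48e-05). In Aox2, Cyb5a, Aldh2, Ephx1 and Por (0.87) the rule cells of both libraries were above the other cells of both. The share of all gene bodies without overlap was not computed. At promoters it was 57.5% in either direction, so the pattern alone marks little.

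Conjugation enzymes gave 6 higher and 1 lower of 23. The arylamine acetyltransferase Nat1 had 39.95 against 6.62 and 36.3 against 4.37 (2.80 ± 0.388, adjusted p = 9.01e-11). Sult1b1, a sulfotransferase, had 30.0 against 20.3 and 42.1 against 11.2 (1.21 ± 0.324, adjusted p = 0.00284). Ugt2a1 and Ugt2a2 stayed higher (2.10 and 1.94), but their bodies overlap. Gsto1 stayed the lower one (-2.72). Among 18 transporters 3 were higher and 3 lower: the efflux pump gene Abcc4 had 537 against 262 and 382 against 274 (0.75 ± 0.160, adjusted p = 7.23e-05), and 2 subunits of the epithelial sodium channel, Scnn1a (-0.70, adjusted p = 0.00357) and Scnn1b (-0.64, adjusted p = 0.0438), were lower with Slco3a1.

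The transcription factor list gave 8 higher and 5 lower of 29 gene bodies. Otx2, a homeobox factor of the olfactory placode, had 94.5 against 57.8 and 150 against 40.001 (1.29 ± 0.195, adjusted p = 4.62e-09). Pax6, a placode and eye factor, had 203 against 161 and 237 against 132 (0.57 ± 0.173, adjusted p = 0.00992). Lhx2, a homeobox factor of olfactory neurons and their precursors, was lower (-1.26 ± 0.269, adjusted p = 8.23e-05). In the Notch list 6 of 16 were higher and 2 lower. Notch3 had 94.5 against 47.5 and 108 against 50.6 (1.03 ± 0.198, adjusted p = 8.08e-06), Heyl, a Notch target, was higher by 1.08 (adjusted p = 0.00216), and Dll1, a ligand, was lower (-0.88, adjusted p = 0.0113).

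Basal cell genes were lower at 9 of 12 gene bodies and higher at 0. Trp63, the p63 factor that keeps horizontal basal cells in reserve, had 75.3 against 151 and 91.5 against 150 (-0.87 ± 0.188, adjusted p = 9.37e-05), while its promoter window, with 5 cut sites in rule cells, was not called. Lama3, a laminin chain of the basement membrane, had 43.0 against 142 and 52.3 against 139 (-1.59 ± 0.201, adjusted p = 1.05e-12). Of sensory neuron genes 5 of 11 were lower and 0 higher, and of precursor genes 4 of 9 and 0. Bowman gland genes gave 2 higher and 1 lower of 8, with a list median of 0.49: Aqp5 (0.90, adjusted p = 0.000505) and Bpifb1, a secreted protein of airway and gland epithelia (1.06, adjusted p = 0.00037), were higher, and Sox9 (-1.39) was lower. At its promoter Bpifb1 had 2.31 (adjusted p = 0.124). Ebf2, a factor of olfactory neurons, had 61.5 against 113 and 34.9 against 168 (-1.49 ± 0.203, adjusted p = 4.86e-11).

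Open regions were tested in the same way. Of 113379 regions more than 500 kb from a rule gene, 2327 were more accessible in rule cells (2.05%) and 6247 less (5.51%), with no overlap at 58.1%. This split depends on the scaling: with total cut sites in place of TMM normalisation it was 3932 higher and 3669 lower, so that the higher share of calls moved from 27.1% to 51.7% and the median log2 change over all regions from -0.55 to -0.23. All 8574 called regions kept their direction under it, and 5995 kept their call. Regions higher in rule cells lay mostly away from gene starts: 7.61% were within 1000 bp of one, against 24.9% of the lower regions and 11.3% of those not called. Open regions were picked on the cut sites of all 4476 cells, of which 91 were rule cells. The part of this choice in the split, in the distance from starts and in the width of regions was not tested.

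The region with the largest gain lay in an intron of Rmdn3 (chr2:119152001-119152500), where the rule cells had 24 and 22 cut sites and the much more numerous other cells 6 and 4 (log2 change 5.81 ± 0.984 SE, adjusted p = 6.37e-07). The others were at Rad51d (chr11:82877501-82878500, over an exon, 5.52), in introns of Ccdc93 (chr1:121478501-121479000, 5.33) and Plekha7 (chr7:116299501-116300000, 5.29), and between genes 49123 bp from the start of Fam174a (chr1:95263501-95264500, 5.28). At the regions with the largest losses the rule cells of uninjured 2 and uninjured 3, which chose the regions, had no cut site. Rule cells of other libraries had up to 6 in a library at the regions named here. Among them were regions over an exon of Dennd2c (chr3:103145501-103149000), where other cells had 1700 cut sites and rule cells were at least 37.3-fold lower, between genes (chr3:121645501-121648000, 1295 and 28.4-fold), and in introns of Kctd18 (chr1:57988001-57990500, 1028 and 22.6-fold) and Shroom2 (chrX:152702501-152707000, 878 and 19.3-fold).

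Sequences of 2 of the higher regions, 1 lower region and 2 promoters higher in rule cells are shown because the called regions differed in motif content, given after them. Regions are 300-base windows of GRCm38.p6 on the plus strand (chr2:119152101-119152400 in Rmdn3, chr1:121478601-121478900 in Ccdc93, and chr3:121646601-121646900 between genes). Promoters are the 250 bases before the RefSeq start (Muc2, chr7:141690090-141690339, plus strand; Ugt2a1, chr5:87490872-87491121, minus strand), read 5′ to 3′. Capitals mark matches on either strand to AP-1 (TGANTCA), OTX (TAATCC) or the Six4 family (TCANGTTNC).
Rmdn3 intron, higher: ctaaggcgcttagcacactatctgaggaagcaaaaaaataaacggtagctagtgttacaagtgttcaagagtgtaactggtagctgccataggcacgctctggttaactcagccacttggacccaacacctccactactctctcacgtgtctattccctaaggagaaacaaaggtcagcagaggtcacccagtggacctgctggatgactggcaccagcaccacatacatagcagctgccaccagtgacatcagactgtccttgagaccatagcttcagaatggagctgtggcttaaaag
Ccdc93 intron, higher: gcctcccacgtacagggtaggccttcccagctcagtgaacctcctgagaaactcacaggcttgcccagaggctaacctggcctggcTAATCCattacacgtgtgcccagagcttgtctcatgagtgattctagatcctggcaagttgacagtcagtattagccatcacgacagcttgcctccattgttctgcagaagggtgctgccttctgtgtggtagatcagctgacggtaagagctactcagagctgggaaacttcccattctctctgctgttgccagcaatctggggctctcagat
Intergenic, lower: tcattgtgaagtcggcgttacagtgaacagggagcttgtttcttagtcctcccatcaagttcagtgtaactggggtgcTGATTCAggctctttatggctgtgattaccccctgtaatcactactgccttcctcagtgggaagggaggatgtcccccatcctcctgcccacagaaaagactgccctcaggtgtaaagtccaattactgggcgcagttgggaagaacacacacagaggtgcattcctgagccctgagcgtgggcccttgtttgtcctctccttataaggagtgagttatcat
Muc2 promoter: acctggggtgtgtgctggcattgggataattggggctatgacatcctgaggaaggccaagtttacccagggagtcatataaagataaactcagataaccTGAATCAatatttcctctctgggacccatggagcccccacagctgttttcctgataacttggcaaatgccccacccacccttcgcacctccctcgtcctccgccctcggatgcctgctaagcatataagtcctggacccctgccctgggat
Ugt2a1 promoter: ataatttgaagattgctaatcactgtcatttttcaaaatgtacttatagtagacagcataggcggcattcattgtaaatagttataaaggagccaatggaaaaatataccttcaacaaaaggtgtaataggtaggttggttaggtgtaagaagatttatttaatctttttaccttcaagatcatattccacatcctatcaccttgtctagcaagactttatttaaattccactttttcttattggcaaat

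The Ccdc93 window held an OTX match and the lower window an AP-1 match. Other windows of the regions named above, not shown, did not follow this pairing. That of the lower Shroom2 region held an OTX match. Those of the lower Dennd2c and Kctd18 regions held none of the 3 motifs, nor did those of the higher regions at Rad51d, in Plekha7 and between genes. The windows of Rmdn3 and Ugt2a1 held none of the 3, and the Muc2 promoter held an AP-1 match although its accessibility was higher in rule cells.

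Over all regions, AP-1, the dimer of Fos and Jun proteins, had its motif in the best 500 bp of 13.8% of higher, 34.5% of lower and 22.2% of uncalled regions. OTX, the homeobox factors of head and olfactory placode, showed the opposite order, with 32.4%, 15.9% and 21.2%. The Six4 family motif was found in 13.6%, 7.19% and 8.44%, and the SOX motif (ACAATG) in 30.3%, 20.6% and 24.4%. The KLF/SP motif (GGGNGGGG) was in 24.8% of higher and 37.3% of lower regions (26.0% of uncalled), and the TFAP2 motif (GCCNNNGGC) in 14.4% and 23.8% (15.6%). CTCF matches were rare in both called sets (3.57% and 4.07%) beside 9.46% of uncalled regions. The RBPJ motif (GTGGGAA), the DNA-binding partner of Notch, was in 13.7%, 11.7% and 11%. A match is a run of letters and not evidence of binding, and base composition moved with the calls: median GC was 46.4% in higher, 51.0% in lower and 47.2% in uncalled regions, and lower regions were wider (median 3000 against 1500 bp).

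**Figure D5:**
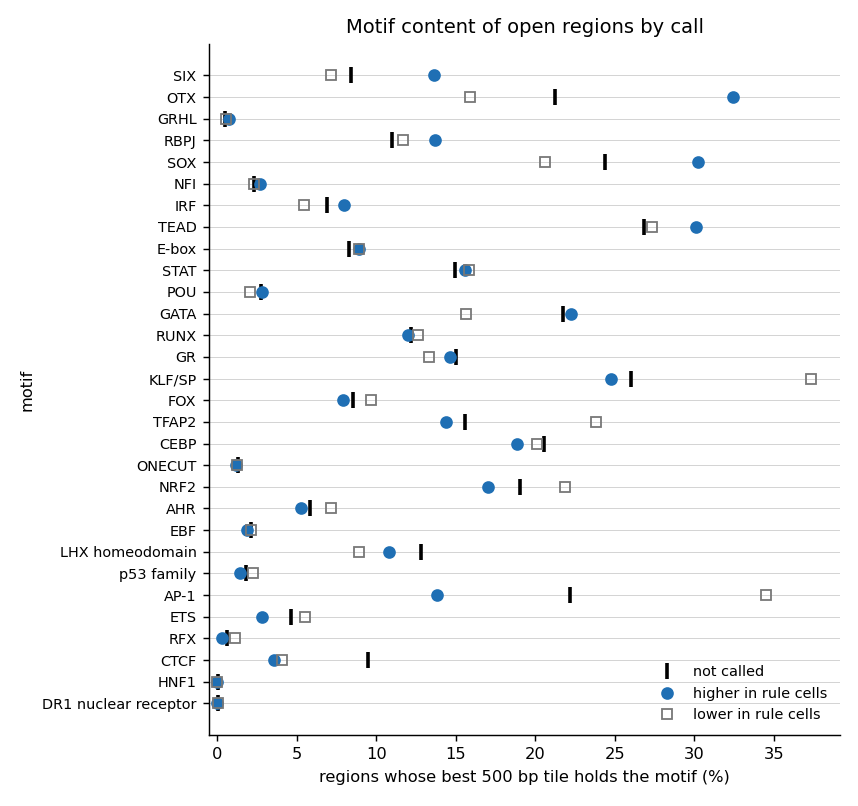
Percentage of regions whose best 500 bp held each motif, for regions higher in rule cells, lower, and not called. AP-1 was in 34.5% of lower and 13.8% of higher regions, while OTX was in 15.9% and 32.4%.

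Promoters were searched for AP-1, OTX and the Six4 family, with no test of a difference from regions. In the 250 bases before 27025 RefSeq starts, AP-1 was found in 6.87%, in 3.38% of the 562 matched promoters called higher and in 7.77% of the 515 called lower. OTX matched 6.38% of all, 6.23% of the higher and 3.50% of the lower. The Six4 family motif was in 2.92%, 2.49% and 1.55%.

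The regions called in uninjured 2 and uninjured 3 were then read in the 4 libraries that took no part in the calls. In uninjured 1 the rule cells placed 4.59% of their cut sites in higher regions and the other cells 1.51%. Injured 1 gave 1.37% against 1.28%, injured 2 1.48% against 1.19% and injured 3 2.14% against 1.25%. Rule cells were above other cells in 4 of 4 libraries, by 1.09 points ± 1.37 (SD, n = 4; exact sign-flip permutation p = 0.125, the smallest possible), but the injured differences were small beside that of uninjured 1. In the lower regions uninjured 1 again followed the calls, with 8.01% in rule cells and 13.9% in other cells. The injured libraries gave 13.3% against 12.6%, 14.1% against 11.3% and 12.03% against 11.97%. Rule cells were thus above other cells in 3 of 4 libraries, against the calls, with a mean difference of -0.59 points ± 3.73 (SD, n = 4).

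Over all cells of a library, cut sites in the higher regions made up 1.65% ± 0.211 (SD, n = 3) before and 1.24% ± 0.0498 (SD, n = 3) after injury. Without the rule cells the means were 1.47% and 1.24%. The regions were chosen in 2 of the 3 uninjured libraries, so these means are a description, with no test of the difference.

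No injured library had 10 rule cells, so promoters were not compared between injured and uninjured rule cells. Their injury response was read instead from the 1000 opening and 1000 closing regions with the smallest p after injury in the other cells of the 2 other replicate numbers, as the percentage of cut sites in both sets that lay in opening regions. Uninjured rule cells had 2.38%, 4.55% and 9.36% in replicates 1 to 3, and injured ones 27.9%, 49.0% and 28.4%. The means were 5.43% ± 3.57 and 35.1% ± 12 (SD, n = 3 each), a difference of 29.7 points with exact permutation p = 0.1, the smallest possible. Other cells had 9.52% ± 8.76 before and 38.4% ± 4.39 after injury. By library they had 3.20%, 5.83% and 19.5% before and 36.6%, 35.2% and 43.4% after injury. Rule cells were thus below the other cells of their own library except in injured 2, whose value comes from 1 rule cell. Only through that cell did the ranges of rule cells and other cells overlap after injury. Rule cells of the 2 groups differed in profile as described, so a response within sustentacular-like cells and a change in which cells passed the rule cannot be told apart.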

How the data were processed

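Single-cell ATAC-seq of 3 uninjured and 3 injured libraries was analysed from the fragments that the authors deposited: genome intervals with a barcode and read-pair count, on mm10 (GRCm38), made with Cell Ranger 2.0.0, per the submitters' processing notes. The values used are counts of cut sites at both fragment ends, computed here from these deposited fragments. The members and gene lists were chosen with earlier results of these data known.

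Open regions were runs of 500 bp tiles with over 5 times the median tile's cut sites over all cells. Counts were summed per library over rule cells and over other cells, and tested with edgeR 4.0.16 in R 4.3.3 (quasi-likelihood, TMM, low-count filter, library block, Benjamini-Hochberg at 0.05) on libraries with 10 or more rule cells, which leaves 1 residual degree of freedom per feature before moderation. Genes came from GENCODE, promoter sequences from RefSeq. Named genes were the 6 rule genes, the called genes of the lists, and the 10 promoters and 5 regions that gained or lost most on the log2 scale, with a mean of 5 CPM or more, no overlap and over 500 kb from a rule gene; others outside the rule are named as not called, and some features that the rule named are not reported here. Doublets were cells with more autosomal stretches covered by 3 or more fragments than cells of similar depth. The reference was the median of the 101 cells nearest in fragment number, at an adjusted p below 0.01 (upper-tail normal test). The 30 motifs, and the 3 marked in capitals, were chosen after the region calls existed. Libraries of a group are labelled biological replicates.

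In data simulated for the promoter comparison (15492 features), 31.0%, 86.5% and 93.0% of 200 changed features were recovered at log2 changes of 1, 2 and 3, with 1, 7 and 11 false calls. For regions (113717 features) recovery was 0%, 1.0% and 24.5%. Each simulation changed 200 features, fewer than the comparisons called, and gave all features the same spread. These shares therefore do not give the power of the comparisons. Alternatives were DESeq2 1.42.0, other scaling, filters, windows, thresholds, doublets left out and each library left out. Python 3.11.15, numpy 2.4.6, pandas 2.3.3, scipy 1.17.1 and matplotlib 3.10.9 were used.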

Additional observations from a re-analysis of the deposited data

How the results depend on the processing

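The difference in share kept its direction under every alternative run, at 2.18 to 4.51 points outside the 0.166 of thinned cells, and at 2.55 to 4.75 with 1 library left out. The injury-region difference ranged from 22.7 to 33.2 with 1 library left out. Paired by replicate number, a block that rests on shared ages, both had p = 0.25, the smallest that exact sign flips of 3 pairs allow. Without the library block (no replicate block) 757 promoters were higher and 710 lower, and 2478 and 4634 regions.

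Promoter calls were 513 higher and 344 lower with DESeq2, 1234 higher and 1655 lower over gene bodies, 175 and 290 with 3 uninjured libraries, and 10 and 141 with all 6. Region calls were 3932 and 3669 with total cut sites, 1470 and 5858 without the filter, 1140 and 2345 with 3 uninjured libraries, and 47 and 2927 with all 6. Leaving a library other than uninjured 2 or uninjured 3 out of the 2-library comparison changed nothing by construction (716 and 710 promoters, 2327 and 6247 regions). From all 6, leaving out uninjured 1 gave 3 promoters higher and 55 lower and 6 and 1650 regions, leaving out injured 1 gave 22 and 209 promoters and 159 and 4928 regions, leaving out injured 2 gave 18 and 75 promoters and 58 and 2623 regions, and leaving out injured 3 gave 15 and 128 promoters and 55 and 2455 regions. Leaving out uninjured 2 or uninjured 3 from all 6 gave 0 promoters with edgeR, although 899 and 964 had an unadjusted p under 0.05, and 0 and 1 regions, all lower, with 10397 and 10804 under it. With all 6 libraries Hey1 was -0.011, and -0.19, -0.28 and -0.25 without uninjured 1, 2 and 3. Cyp2j6 was -0.63 and -0.83 without uninjured 2 and 3. Nrarp was -0.19, -0.089 and -0.092 without uninjured 2, uninjured 3 and injured 1, and Aldh3a1 0.031 without uninjured 3. Across the settings that did not use all 6 libraries, 44 of the 63 named promoters and regions kept their call and 19 lost it in at least 1. Without uninjured 2 or uninjured 3 the comparison of 2 libraries leaves 1 and has no test. All 63 kept their direction, which is no support because they were called in these same 2 libraries. For those named by the largest change, the requirement of no overlap fixed the direction in advance.

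Summed log2 list ratios over gene bodies were 0.62 (sustentacular), 0.60 (oxidation), 0.60 (conjugation), 0.42 (Bowman gland), -0.85 (olfactory neuron), -0.64 (precursor) and -0.22 (stromal). At 6 times the mean rate they were 0.68 (sustentacular), 0.074 (Bowman gland), -2.01 (olfactory neuron), -0.96 (precursor) and 1.88 (stromal), and with doublets left out 0.59, 0.074, -1.94, -1.37 and 1.90. The cause of these shifts was not tested. Promoters of injured against uninjured rule cells, and their alternatives, were not run. In data simulated at these depths with 200 changed regions and the same spread for all, 1.0% of those with a log2 change of 2 were recovered. The comparison itself called 8574 regions, so this share does not give its power. The parts of depth, of 2 libraries and of the number of regions tested or changed in the simulated share were not tested.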

Other observations

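Cells that reached the rate of the rule but had cut sites in fewer than 3 of its genes were a mixture by the same region score: 19 of the 162 scored reached 50, of which 13 of 53 were in uninjured 2, 5 of 16 in uninjured 3 and 1 of 22 in uninjured 1. In the injured libraries 0 of 44, 0 of 16 and 0 of 11 did, which allows shares of up to 6.82%, 18.8% and 27.3%. Together they placed 2.86% of their cut sites in regions higher in rule cells in uninjured 2 and 3.43% in uninjured 3, between the 1.59% and 1.33% of all cells outside the rule and the 5.47% and 5.57% of rule cells, in the libraries that chose these regions. In the libraries that took no part in choosing them, the values were 1.73% in uninjured 1, beside 1.51% of the cells outside the rule, 1.47% beside 1.28% in injured 1, 0.815% beside 1.19% in injured 2 and 0.871% beside 1.25% in injured 3, so that they lay above in 2 libraries and below in 2.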
